A study of Mus musculus with 12 samples.

Results

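The comparison described here is between the libraries labelled as brain on day 4 (S4B) and on day 2 (S2B) after ischemic injury of the skull, across all genes of the count table. The members were chosen by label: 3 libraries of S4B and 3 of S2B, 6 of the 12 libraries analysed. Both groups came from wild-type male BALB/c mice, 8 weeks old, in which photothrombosis (PT) had been made in the skull, by lighting Rose Bengal in the blood with a laser. The labels give brain cortex as the tissue of both groups. As described, the groups share strain, sex, age, injury and tissue label and differ by the day alone. Their transcripts also differed in tissue content, as given below. Poly(A) RNA was sequenced from both ends of the fragments. The study calls the 3 libraries of a condition biological replicates, without giving the number of mice behind each or whether mice were pooled, and the p-values measure the spread between these libraries. Uninjured brain was not analysed here, and no value below is a difference from a control.

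In PT the lit dye damages the vessel wall, platelets close the vessel, and the tissue behind it loses its supply. Cortex is made of neurons, which carry the machinery for releasing transmitter in vesicles, and of astrocytes, oligodendrocytes and microglia. Skull is bone with marrow: osteoblasts lay down collagen I and mineralize it, osteoclasts resorb it, and the marrow makes neutrophils, red cells, platelets and lymphocytes. Between both lie the meninges, layers of fibroblasts and vessels.

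The labelled tissue was checked first against the genes that define it. In the S4B libraries the genes of cortex were abundant and those of bone near 0, whereas the libraries labelled S2B held the reverse. Snap25, a membrane fusion protein of neurons, was at 22.0, 8.94 and 24.9 CPM in S2B and 3507, 3621 and 3534 CPM in S4B. Col1a1, which encodes a chain of collagen I, was at 33979.5, 33589 and 36882 CPM in S2B and 2.59, 2.99 and 4.05 CPM in S4B. All 3 S2B libraries went against the label in the same way. Their ranks of genes (Spearman, mean over pairs of libraries, 17059 genes) were at 0.575 to S4B and at 0.957 to the libraries labelled skull, day 6 after brain PT, while S4B was at 0.993 to those labelled skull, day 2 after brain PT. Each difference between the days below is therefore also a difference between libraries rich in bone transcripts and libraries rich in brain transcripts, and both cannot be told apart in these 6 libraries. Whether the labels of S2B and of skull, day 2 after brain PT, were exchanged was not tested, and if they were, the fold changes below would not be differences between days of skull injury. The groups are called by their labels, and rose and fell below stand for higher and lower in S4B than in S2B. In such bulk libraries, fewer cells of a type and less RNA per cell cannot be told apart either. Total counts were 14495637 to 16708951 in S2B and 14183813 to 18972654 in S4B, and the limit that 0 counts allow (3 counts) stood at 0.163 to 0.216 CPM (counts relative to the library total scaled with TMM factors). It covers counting error only.

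Of 17293 genes tested, 4799 were higher and 4949 lower in S4B than in S2B. These are 27.8% and 28.6% of the genes, or 56.4% in either direction, with 0.05 as the limit of the adjusted p (Benjamini-Hochberg, quasi-likelihood test of edgeR) and 1 as that of the size of the log2 fold change. Genes that passed both thresholds are called differentially expressed genes (DEGs) here, and every count of a list below is to be read against these shares. Of the DEGs, 9701 did not overlap between the groups and 47 did, and of all genes tested 85.6% did not overlap. The median log2 fold change of all genes tested was -0.01 and the median of its size 1.25. Among the DEGs higher in S4B, 230 changed by more than 8 on the log2 scale and 1803 by 1 to 2, and among those lower in S4B the numbers were 145 and 1827. In S2B 471 of the DEGs higher in S4B had at most 3 counts in every library, and in S4B 395 of the DEGs lower there.

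The DEGs of each direction held over 50% of the counts of 1 group. DEGs higher in S4B took 54.8% to 55.2% of the counts of the S4B libraries and 8.88% to 9.33% of those of S2B. DEGs lower in S4B took 50.6% to 52.8% of the counts in S2B and 6.17% to 6.34% in S4B. Collagen chain genes alone took 10.2% to 11.6% of the counts in S2B, against 0.0478% to 0.0524% in S4B. The 12 DEGs with the most counts in S4B included Meg3, mt-Rnr2, Slc1a2, Snhg11, Snap25, Camk2a, mt-Rnr1, Kif5a, Sparcl1, Syt1 and Clstn1, among them synaptic and axonal genes (Snap25, Syt1, Camk2a, Kif5a, Clstn1), the astrocyte genes Slc1a2 and Sparcl1, and the long noncoding RNA Meg3. The 12 with the most counts in S2B were Col1a1, Col1a2, Col3a1, Sparc, Eef1a1, Gpx3, Mmp13, Igfbp5, Col12a1, Spp1, Ibsp and Lum, of which all but Eef1a1, Gpx3 and Igfbp5 encode proteins of the matrix or an enzyme that degrades it.

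**Figure D1:**
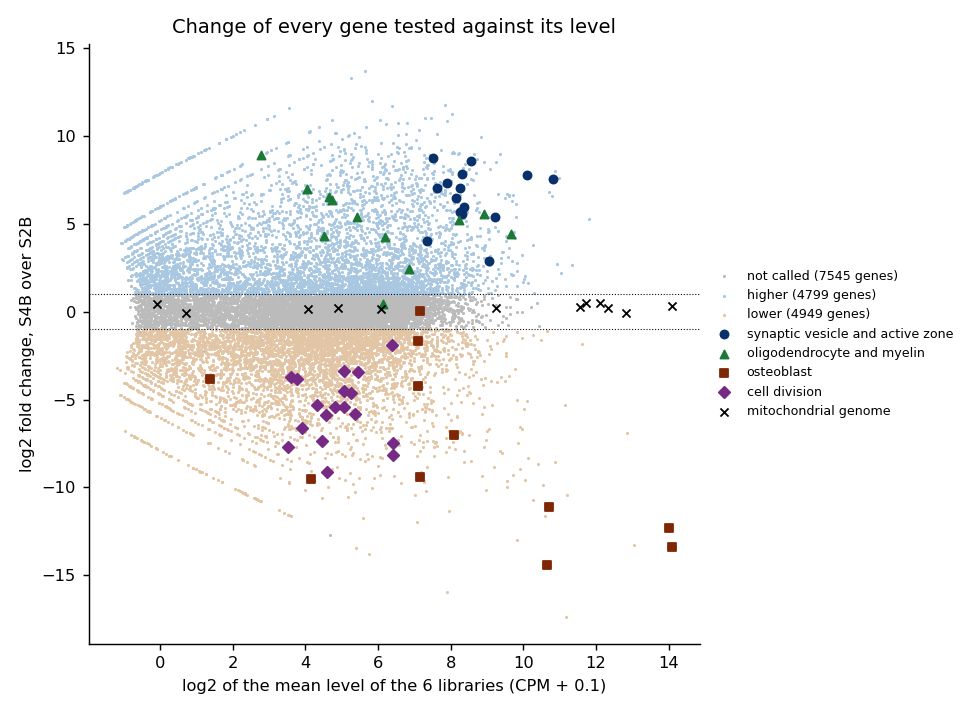
Log2 fold change of S4B over S2B (y axis) against the log2 of the mean level of the 6 libraries (x axis, CPM plus a small constant) for the 17293 genes tested. Large symbols are the members of 5 lists, and dotted lines mark a log2 fold change of 1 in either direction. The 15 synaptic genes lie above the upper line, the 18 cell division genes below the lower line, and the 12 genes of the mitochondrial genome between both lines.

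Genes of synaptic vesicles and the active zone, where vesicles fuse, rose without exception: 15 of 15 tested were higher in S4B (median log2 fold change 7.03, against -0.01 over all genes tested). Syn1, which encodes a protein that tethers vesicles, was at 4.87, 4.80 and 3.93 CPM in S2B and 576, 611 and 619 CPM in S4B. All S4B libraries lay far above all S2B libraries, with a log2 fold change of 7.05 (SE 0.10, adjusted p = 1.02e-12). Cplx1, a regulator of fusion, was at 2.35, 2.34 and 1.04 CPM in S2B and 757, 769 and 713 CPM in S4B, and its log2 fold change was 8.61 (SE 0.20, adjusted p = 1.20e-10). Vamp2, the fusion protein on the vesicle itself, showed the smallest difference of the list, at 118, 132 and 133 CPM in S2B and 906, 938 and 943 CPM in S4B (log2 fold change 2.87, SE 0.08, adjusted p = 3.93e-11). Its S2B level was the highest of the list in that group, both in CPM and per length, at 33.5 CPM per kilobase of exon. Syt1, the calcium sensor of release, was at 13.1, 1.80 and 14.1 CPM in S2B and 2121, 2261 and 2184 CPM in S4B, with S2B replicate 2 far below the other S2B libraries, and its log2 fold change of 7.81 (SE 0.77, adjusted p = 5.31e-04) had the largest standard error of the list.

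The promoter of Syn1 is shown because it holds a part of the RE1 element, the site of the repressor REST, which is known to keep neuronal genes silent in other tissues. Sequences are from RefSeq (GRCm38.p6), 250 bases before to 50 bases after the start of the transcript, read along the strand of the gene. The left and right parts of RE1 were searched as TTCAGCACC and GGACAGCG on both strands, and matches are in capitals. Syn1 lies on chromosome X, minus strand (chrX:20920869-20921168). Unc13a, an active zone gene that primes vesicles, was picked after the search because its promoter holds both parts (chr8:71671708-71672007, minus strand), and it was at 12.5, 8.61 and 13.4 CPM in S2B and 614, 548 and 649 CPM in S4B (log2 fold change 5.71, SE 0.16, adjusted p = 6.64e-10).
Syn1: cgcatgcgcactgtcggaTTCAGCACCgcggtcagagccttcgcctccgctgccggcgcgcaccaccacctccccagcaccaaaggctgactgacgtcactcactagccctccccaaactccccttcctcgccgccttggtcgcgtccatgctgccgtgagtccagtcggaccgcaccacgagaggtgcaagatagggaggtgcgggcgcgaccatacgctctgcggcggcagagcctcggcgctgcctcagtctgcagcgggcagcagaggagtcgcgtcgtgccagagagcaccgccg
Unc13a: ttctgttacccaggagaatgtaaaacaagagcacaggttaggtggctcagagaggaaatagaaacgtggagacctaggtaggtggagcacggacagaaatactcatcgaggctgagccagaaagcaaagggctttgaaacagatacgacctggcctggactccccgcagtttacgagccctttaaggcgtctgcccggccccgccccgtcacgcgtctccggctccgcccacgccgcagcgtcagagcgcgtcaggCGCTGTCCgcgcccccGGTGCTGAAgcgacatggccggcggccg
The left part was present in 0.592% of the 3209 promoters of DEGs higher in S4B, in 0.347% of the 3462 of DEGs lower in S4B and in 0.394% of all 12188 genes tested that had a promoter in the table. The right part was present in 2.37%, 1.88% and 2.17% of them. Both are thus rare in these windows. A match is a description of the sequence and not of binding.

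Excitatory neuron genes behaved alike, with 10 of 11 higher in S4B and a median log2 fold change of 7.58. Slc17a7, which loads vesicles with glutamate, was at 4.07, 2.40 and 5.16 CPM in S2B and 1101, 1058 and 1081 CPM in S4B. Grin2b, a subunit of the NMDA receptor, was at 0.401, 0.200 and 0 CPM in S2B and 471, 493 and 598 CPM in S4B, so that S2B held only a few counts. Tbr1, a transcription factor of deep cortical projection neurons, was at 0.115, 0.534 and 0.246 CPM in S2B and 189, 198 and 189 CPM in S4B (log2 fold change 9.35, SE 0.17, adjusted p = 2.07e-12). Without S2B replicate 1 the log2 fold change of Grin2b went from 11.26 to 12.29, and without S2B replicate 2 that of Tbr1 was 10.02.

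Markers of the inhibitory neurons followed, with 10 of 11 higher in S4B (median 7.63, or 6.62 where genes near 0 in S2B are set to their lower bound). Gad1, which makes GABA, was at 1.26, 3.07 and 1.04 CPM in S2B and 469, 530.1 and 504 CPM in S4B. Vip, a neuropeptide, was at 0.172, 0 and 0.0614 CPM in S2B and 57.3, 60.6 and 60.5 CPM in S4B, at least 321-fold higher in S4B. Without S2B replicate 2 the log2 fold change of Gad1 went from 8.15 to 8.75. Cck, another neuropeptide, was at 1.20, 0.667 and 0.368 CPM in S2B and 365, 320.1 and 362 CPM in S4B, the highest of the list in S4B per length (268 CPM per kilobase). Pvalb was the exception. This calcium buffer of fast-spiking interneurons and of fast muscle was at 119, 92.5 and 16.5 CPM in S2B and 60.5, 62.1 and 58.3 CPM in S4B, with S2B replicate 3 far below the other S2B libraries and below S4B (log2 fold change -0.33, SE 0.74, adjusted p = 0.697). The skeletal muscle genes given below were also lowest in S2B replicate 3.

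Layer markers of cortex were mostly on the side of S4B. Of 8 genes of the upper layers 7 were higher in S4B (median 5.79), among them Lamp5 at 0.172, 0.200 and 0.123 CPM in S2B and 320.2, 343 and 396 CPM in S4B and Cux2 at 3.73, 4.80 and 2.09 CPM in S2B and 134, 149 and 152 CPM in S4B. The related factor Cux1 was at 106, 103 and 102 CPM in S2B and 90.2, 106 and 136 CPM in S4B, overlapping between groups. Of 10 genes of the deep layers 6 were higher and 2 lower (median 1.97). Fezf2, which specifies corticospinal neurons, was at 0.0573, 0.0667 and 0 CPM in S2B and 46.3, 41.6 and 37.2 CPM in S4B, at least 225-fold higher. Foxp2 fell by 1.35 on the log2 scale and Sulf1, an enzyme that trims heparan sulfate and is also expressed in connective tissue, fell by 3.91.

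Genes that mark regions around the cortex were mixed. Of 9 tested genes of striatum 7 were higher, but the dopamine receptor gene Drd2 reached only 0.172, 0.0667 and 0.123 CPM in S2B and 1.37, 1.14 and 1.35 CPM in S4B and Drd1 0.115, 0.867 and 0.246 CPM in S2B and 8.05, 6.64 and 6.13 CPM in S4B (log2 fold change 4.11, or 5.22 without S2B replicate 2). Of 7 thalamus genes 2 were higher and 2 lower, near the 27.8% and 28.6% of all genes tested. Of the 2 higher, Rora lost its call without S2B replicate 1 and with upper-quartile or total-count scaling. Slc17a6, not called, was called higher without S2B replicate 2. Of 9 hippocampus genes 5 were higher and 0 lower. The hypothalamic genes tested, Agrp and Pomc, did not reach 2 CPM in any library. In the choroid plexus and ependyma list, the transthyretin gene Ttr had the highest mean in S2B, though not in S4B. Ttr was at 6.25, 6.20 and 0.184 CPM in S2B and 0.144, 0.109 and 0.225 CPM in S4B and did not pass the filter. Of 5 cerebellum genes tested 1 was higher, a call lost in the fit of all 12 libraries, and 3 lower. Of the 3 lower, Cbln3, whose groups overlapped, lost its call in that fit too. Its call was also lost without S2B replicate 2 and without S4B replicate 1 or 3 (log2 fold change -1.35, or -0.97 without S2B replicate 2).

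Astrocyte genes rose in 9 of 10 cases (median 3.12). Slc1a2, the main glutamate uptake carrier, was at 37.9, 12.9 and 11.2 CPM in S2B and 4009, 3839.6 and 4182 CPM in S4B, with S2B replicate 1 above the other S2B libraries and all S4B libraries far higher (log2 fold change 7.59, SE 0.66, adjusted p = 2.70e-04, or 8.37 without S2B replicate 1). Aqp4, the water channel of the end feet, was at 9.17, 5.60 and 4.17 CPM in S2B and 69.7, 60.1 and 92.5 CPM in S4B. Gfap, the filament protein that astrocytes make more of after injury, was at 8.25, 9.01 and 6.57 CPM in S2B and 48.7, 43.6 and 51.1 CPM in S4B (log2 fold change 2.59, SE 0.12, adjusted p = 3.35e-09). Gja1, a gap junction gene that osteoblasts and fibroblasts also use, went the other way, at 639, 674 and 798 CPM in S2B and 146, 153 and 156 CPM in S4B.

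Oligodendrocyte and myelin genes rose in 11 of 12 cases (median 5.30). Mbp, a main protein of the myelin sheath, was at 53.2, 115 and 52.4 CPM in S2B and 1842, 1412 and 1399 CPM in S4B, and Mobp at 9.75, 29.6 and 8.90 CPM in S2B and 692, 638 and 438 CPM in S4B. In S4B replicate 1 was the highest for Mobp and Mbp, in S2B replicate 2, and the groups were far apart. Without S2B replicate 2 the log2 fold change of Mobp went from 5.21 to 5.98. Cldn11, a tight junction gene of myelin that other tissues also express, was at 62.8, 61.7 and 56.3 CPM in S2B and 94.2, 85.9 and 63.8 CPM in S4B and missed the fold threshold. Of 8 markers of oligodendrocyte precursors 6 were higher, among them Olig2 (0.115, 0 and 0.123 CPM in S2B and 24.6, 23.4 and 17.9 CPM in S4B) and Gpr17 (1.72, 2.13 and 0.982 CPM in S2B and 33.1, 42.9 and 44.1 CPM in S4B). Pdgfra and Cspg4, which mark precursors in brain and mesenchymal cells and pericytes elsewhere, fell by 2.36 and 2.60 on the log2 scale.

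Microglia genes split, with 3 of 10 higher, 3 lower and 4 not called (median 0.68). These counts are near the 27.8% higher and 28.6% lower among all genes tested. P2ry12, a purine receptor of resting microglia, was at 10.9, 7.74 and 12.5 CPM in S2B and 39.2, 38.1 and 43.7 CPM in S4B and Siglech at 3.10, 1.07 and 2.09 CPM in S2B and 13.8, 13.3 and 14.1 CPM in S4B, both higher in S4B. Tmem119, a microglia marker that osteoblasts also express, was at 329, 319 and 339 CPM in S2B and 18.3, 16.4 and 16.6 CPM in S4B. Olfml3, a secreted matrix protein, was at 521, 573 and 613 CPM in S2B and 8.98, 8.54 and 9.78 CPM in S4B. For both, every S2B library lay far above S4B, with log2 fold changes of -4.27 (SE 0.08, adjusted p = 1.88e-12) and -5.96 (SE 0.10, adjusted p = 1.48e-12). Cx3cr1, the fractalkine receptor, was at 22.2, 19.1 and 21.0 CPM in S2B and 29.5, 36.0 and 34.1 CPM in S4B, higher in each S4B library but under the fold threshold. All 12 genes of macrophages and monocytes were lower in S4B (median -4.42). Lyz2, lysozyme of myeloid cells, was at 729, 570.2 and 595 CPM in S2B and 4.82, 7.78 and 3.21 CPM in S4B, Mrc1, the mannose receptor, at 124, 104 and 123 CPM in S2B and 1.37, 2.67 and 2.81 CPM in S4B and C1qa, a complement gene that microglia also express, at 87.3, 96.5 and 87.3 CPM in S2B and 28.4, 35.6 and 20.4 CPM in S4B. Those that microglia share differed least: C1qa, C1qb and Csf1r fell by 1.68, 1.56 and 1.56 on the log2 scale, while Mrc1 fell by 5.64, Ccr2 fell by 6.93 and Lyz2 fell by 6.89. Without S4B replicate 2 the value of Ccr2 was -7.54.

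**Figure D2:**
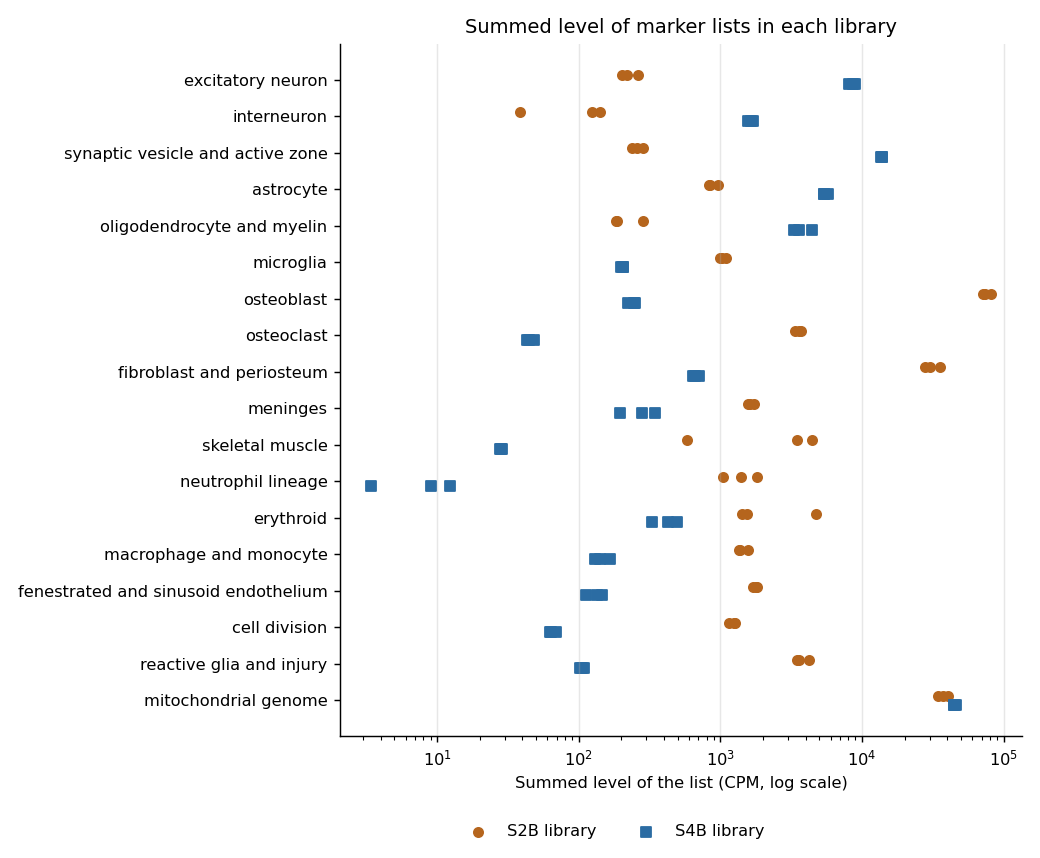
Summed CPM of the matched genes of 18 lists (x axis, log scale) in each of the 3 S2B (circles) and 3 S4B libraries (squares). The mitochondrial genome list shows the smallest gap between the groups. Skeletal muscle spreads from 579 to 4463 CPM within S2B and erythroid from 1432 to 4730 CPM.

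Osteoblast genes were abundant in S2B and near 0 in S4B. Their summed level was 71634 to 82067 CPM in S2B and 224 to 251 CPM in S4B, and 10 of 11 were lower in S4B (median log2 fold change -9.39, or -7.60 with bounds). Ibsp, bone sialoprotein, was at 3565, 2119 and 4009 CPM in S2B and 0.0719, 0.163 and 0.169 CPM in S4B, with S2B replicate 2 the lowest of its group. S4B replicates 2 and 3 were at the limit of 3 counts itself. The fold of 17702 against that limit is therefore not a firm lower bound. Sp7, the transcription factor that commits cells to the osteoblast fate, was at 301, 252 and 307 CPM in S2B and 0.503, 0.435 and 0.337 CPM in S4B and Runx2, which acts before it, at 233, 264 and 285 CPM in S2B and 13.4, 14.5 and 13.9 CPM in S4B. Alpl, the phosphatase that frees phosphate for mineral, was at 526, 546 and 537 CPM in S2B and 4.96, 3.05 and 4.72 CPM in S4B. The least change among those called was that of Smpd3, a sphingomyelinase that neurons also express, at 216, 183 and 219 CPM in S2B and 62.6, 68.2 and 66.5 CPM in S4B (log2 fold change -1.65, SE 0.08, adjusted p = 4.63e-09). Bglap, Bglap2, Ifitm5 and Dlx5 were not analysed here.

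Among osteocyte genes, 5 of 7 were lower in S4B. Dmp1, a mineral-binding matrix protein, was at 202, 118 and 149.6 CPM in S2B and 1.44, 1.25 and 1.52 CPM in S4B and Phex, which controls phosphate, at 30.4, 28.2 and 34.7 CPM in S2B and 1.15, 0.707 and 1.41 CPM in S4B. Sost, the Wnt inhibitor of mature osteocytes, was low in both groups but lower in S4B, at 0.688, 1.13 and 2.03 CPM in S2B and 0.144, 0.0544 and 0.225 CPM in S4B. Ptprz1, a phosphatase receptor of glia and precursors, was higher in S4B, at 27.1, 25.4 and 23.9 CPM in S2B and 247, 222 and 275 CPM in S4B.

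The osteoclast list fell as a whole, 11 of 11 genes (median -8.05, or -6.72 with bounds). Ctsk, the protease that degrades collagen I under the resorbing cell, was at 1379, 1412 and 1298 CPM in S2B and 4.31, 4.73 and 6.30 CPM in S4B. Acp5, the tartrate-resistant phosphatase, was at 506, 523 and 458 CPM in S2B and 0.359, 0.0544 and 0.169 CPM in S4B (log2 fold change -11.37, or -12.02 without S4B replicate 1). Atp6v0d2, a proton pump subunit of osteoclasts, was at 105, 108 and 108 CPM in S2B and 0 CPM in every S4B library, at least 585-fold lower. The fusion genes Dcstamp and Ocstamp were at or near 0 in S4B, and the groups did not overlap in 11 of 11 tested genes of the list, against 85.6% of all genes tested. Mmp13 and Mmp9, a collagenase and a gelatinase, were at 5642, 3625 and 4562 CPM in S2B and 0, 0 and 0.0562 CPM in S4B and at 926, 979 and 884 CPM in S2B and 1.15, 1.74 and 1.24 CPM in S4B. Mmp13 was thus at least 25255-fold lower in S4B. Of the cartilage genes 7 of 10 were lower, 1 was higher and 2 were not called. The higher gene, Sox9, was at 9.40, 9.14 and 10.2 CPM in S2B and 23.9, 17.9 and 26.8 CPM in S4B (log2 fold change 1.25). Col2a1, the collagen of cartilage, was at only 5.96, 8.87 and 8.29 CPM in S2B and 1.58, 1.25 and 1.07 CPM in S4B, and Col10a1 and Matn1 were under 1 CPM in every library, while Col11a2, which osteoblasts also express, was at 654, 801 and 669 CPM in S2B and 31.9, 25.4 and 28.1 CPM in S4B.

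The promoters of Mmp13 (chr9:7272264-7272563, plus strand) and Spp1 (chr5:104434861-104435160, plus strand, the first of 2 listed) are shown because both genes are among the 12 with the most counts in S2B and both hold the core of the RUNX site, TGTGGTT, which is recognised by Runx2. In Mmp13 a site of the AP1 dimer, TGANTCA, lies between it and the start, and in Spp1 an ETS site, GAGGAAGT. Matches on either strand are in capitals.
Mmp13: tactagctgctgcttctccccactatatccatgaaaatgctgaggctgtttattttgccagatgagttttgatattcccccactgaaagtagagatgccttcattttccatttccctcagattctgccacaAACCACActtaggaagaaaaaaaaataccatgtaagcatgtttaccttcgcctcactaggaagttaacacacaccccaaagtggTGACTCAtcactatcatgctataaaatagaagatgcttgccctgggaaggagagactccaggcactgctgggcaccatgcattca
Spp1: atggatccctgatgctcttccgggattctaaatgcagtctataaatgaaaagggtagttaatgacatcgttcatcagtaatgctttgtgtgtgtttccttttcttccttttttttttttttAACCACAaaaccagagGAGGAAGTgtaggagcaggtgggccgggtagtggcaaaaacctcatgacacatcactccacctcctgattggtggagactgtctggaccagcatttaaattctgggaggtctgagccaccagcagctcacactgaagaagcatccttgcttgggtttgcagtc
RUNX cores were in 4.42% of promoters of DEGs lower in S4B, 3.27% of those higher and 3.67% of all with a promoter. For the AP1 letters, which read the same on both strands, the shares were 6.93%, 4.61% and 5.19%, and for ETS 4.19%, 1.87% and 2.91%. All 3 motifs were thus more frequent beside the DEGs lower in S4B, by shares that leave most of these promoters without a match. Promoters with few CpG pairs, at most 5 in 300 bases, were 21.3% of those of DEGs lower in S4B, 14.9% of those higher and 13.2% of all. The promoter of Mmp13 has 1 CpG, that of Spp1 3, that of Syn1 33 and that of Unc13a 27.

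Fibroblast and periosteum genes fell in 10 of 11 cases (median -8.41). Postn, periostin of the periosteum, was at 2005, 2496 and 2831 CPM in S2B and 1.29, 1.41 and 1.57 CPM in S4B and Lum, a proteoglycan of collagen fibrils, at 2718, 3101 and 3417 CPM in S2B and 0.719, 1.09 and 1.07 CPM in S4B. Twist1, a transcription factor of cranial mesenchyme, was at 82.5, 115 and 116 CPM in S2B and 0.144, 0.381 and 0.337 CPM in S4B. Thy1, which marks fibroblasts but also neurons, was higher in S4B, at 119, 133 and 118 CPM in S2B and 529, 566 and 534 CPM in S4B. Of the meninges list 10 of 11 were lower (median -4.20), of which Slc6a13, a GABA transporter, lost its call under 9 alternatives, among them leaving out S2B replicate 1 or 2 or any 1 S4B library. Foxc1, a factor of the developing meninges and skull, was at 68.2, 69.3 and 73.7 CPM in S2B and 3.02, 5.22 and 5.06 CPM in S4B. Ptgds, a prostaglandin synthase that meninges and oligodendrocytes make, was at 497, 311 and 273 CPM in S2B and 176, 246 and 308 CPM in S4B, and its groups overlapped (log2 fold change -0.57, SE 0.33, adjusted p = 0.165). In S4B replicate 1 was the lowest for Ptgds, Foxc1, Ogn and Slc47a1 among the S4B libraries. Of 6 tendon genes 4 were lower, and the 2 higher were Egr1 and Mkx, whose call was lost with upper-quartile scaling.

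Skeletal muscle genes were in S2B in unequal amounts. All 14 tested were lower in S4B (median -7.38), and for all 14 S2B replicate 3 was the lowest of its group. Acta1, the actin of muscle, was at 659, 777 and 86.2 CPM in S2B and 6.83, 6.86 and 7.14 CPM in S4B and Myh1, a fast myosin, at 580.3, 914 and 91.3 CPM in S2B and 3.88, 2.39 and 3.04 CPM in S4B. Even replicate 3 lay above every S4B library, and the log2 fold changes were -6.19 (SE 1.11, adjusted p = 0.00580) and -7.43 (SE 1.25, adjusted p = 0.00450). Without S2B replicate 2, in which 13 of the 14 were highest, the median was -6.77 and the log2 fold change of Myh1 -6.78. The call of Myh2 (log2 fold change -5.02) was lost when any 1 S4B library was left out, with log2 fold changes of -4.91 to -5.06, and without S2B replicate 2 the value was -4.20. The call of Tnni2, at least 460.0-fold lower, was lost when any 1 S4B library or S2B replicate 1 or 2 was left out, and that of Tnnt3, at least 1483-fold lower, without S4B replicate 2, with the direction kept in each case. The adipocyte list, 6 of 6 lower, was led by Fabp4, a fatty acid carrier also of endothelium, at 61.7, 105 and 68.8 CPM in S2B and 0.216, 0 and 0.0562 CPM in S4B, at least 430.1-fold lower. The call of Plin4, a lipid droplet protein (log2 fold change -2.50, or -1.52 without S2B replicate 2), was lost under 7 alternatives, among them leaving out S2B replicate 1 or any 1 S4B library. Epidermis genes were at no more than 5 CPM in any library (1 of 6 higher, 5 not called), and the one call, Lor, was lost under 7 of the alternative settings.

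Marrow lineages lay on the side of S2B. All 10 neutrophil genes tested were lower in S4B (median -7.11). Ngp, of neutrophil granules, was at 301, 418 and 208 CPM in S2B and 0.647, 0.109 and 0.450 CPM in S4B and S100a9, a calcium-binding protein of mature neutrophils, at 371, 482 and 290.1 CPM in S2B and 2.30, 2.88 and 1.18 CPM in S4B. In S2B replicate 2 was the highest in 9 of the 10 and replicate 3 the lowest in 9. Megakaryocyte and platelet genes fell in 8 of 8 cases (median -5.48), with Pf4, a platelet chemokine, at 59.7, 73.8 and 67.3 CPM in S2B and 0.431, 0.925 and 0.675 CPM in S4B. Genes of mast cells, basophils and eosinophils fell in 6 of 6 cases, and all 6 had at most 3 counts in every S4B library. The mast cell tryptase Tpsb2 was at 20.2, 25.2 and 26.8 CPM in S2B and 0 CPM in every S4B library, at least 132-fold lower. Of 8 B lineage genes 7 were lower (median -3.93), among them Cd79a at 4.76, 8.07 and 7.12 CPM in S2B and 0.216, 0.381 and 0.394 CPM in S4B. Of 7 dendritic cell genes 5 were lower and 1 higher (median -3.20). T cell genes were below 5 CPM in every library, and of 4 tested 3 were lower in S4B (median -3.01, or -3.77 to -4.06 without S2B replicate 2 or 3 or S4B replicate 1 or 2), among them Cd4 at 3.38, 4.87 and 4.73 CPM in S2B and 1.08, 1.14 and 0.956 CPM in S4B.

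Red cell genes varied within S2B. Hbb-bs, a beta globin gene, was at 833, 2928 and 959 CPM in S2B and 102, 175 and 223 CPM in S4B, and Hba-a1, an alpha globin, at 389, 1471 and 421 CPM in S2B and 47.1, 67.4 and 95.5 CPM in S4B. S2B replicate 2 lay far above the other S2B libraries, and all S4B libraries lay below S2B. Their log2 fold changes were -3.24 and -3.44, or -2.42 and -2.53 without S2B replicate 2. Of 9 genes tested 7 were lower in S4B, or 3 without S4B replicate 2 (median -3.17, or -2.06 without S2B replicate 2). Alas2, the first enzyme of heme synthesis in red cells, was at 26.6, 106 and 35.0 CPM in S2B and 5.75, 10.3 and 10.5 CPM in S4B, and its log2 fold change was -2.64, or -1.79 without S2B replicate 2. The call was lost when any 1 S4B library was left out. Epor, the erythropoietin receptor, was higher in S4B, at 2.06, 2.74 and 2.46 CPM in S2B and 6.32, 6.48 and 5.23 CPM in S4B. Globin reads can be split between near-identical copies, so single globin genes are uncertain. Of 9 progenitor genes 5 were lower, 3 higher and 1 not called (median -2.10). Kit and Hlf, which neurons also express, and Flt3 rose by 1.54, 3.41 and 2.67 on the log2 scale, and Myb and Cd48, which are largely blood genes, fell by 3.77 and 3.86.

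Of the vessel genes, all 11 genes of fenestrated and sinusoid endothelium were lower in S4B (median -3.57). Plvap, which forms the diaphragms of fenestrae, was at 205, 235 and 206 CPM in S2B and 12.9, 13.2 and 11.6 CPM in S4B and Stab1, a scavenger receptor of sinusoids, at 283, 247 and 254 CPM in S2B and 9.34, 11.1 and 11.6 CPM in S4B. The pan-endothelial genes Pecam1 and Cdh5 fell by 3.35 and 3.57 on the log2 scale. Of the genes of the blood-brain barrier, 4 of 10 were higher, 2 lower and 4 not called (median 0.52), against 27.8% higher and 28.6% lower among all genes tested. Of the 2 lower, Lsr lost its call without S2B replicate 1, without S4B replicate 1 and with the replicate block. Mfsd2a, which carries lipids and holds transcytosis down, was at 0.688, 0.534 and 0.491 CPM in S2B and 15.7, 11.9 and 18.5 CPM in S4B and Slco1c1, a thyroid hormone carrier, at 2.92, 1.73 and 1.41 CPM in S2B and 65.8, 62.3 and 71.1 CPM in S4B. Cldn5, the claudin of tight junctions, was at 21.4, 18.5 and 15.9 CPM in S2B and 18.8, 27.5 and 25.5 CPM in S4B, with overlapping groups. The summed level of the sinusoid list was 1709 to 1809 CPM in S2B and 113 to 145 CPM in S4B.

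Genes of vascular growth, which injury and low oxygen can raise, were lower in 12 of 16 cases and higher in 0 (median -2.42). Vegfa, the main growth factor of endothelium, was at 137, 103 and 102 CPM in S2B and 130.5, 96.5 and 125 CPM in S4B, with overlapping groups (log2 fold change 0.04, SE 0.15, adjusted p = 0.805). Its receptor Kdr fell by 2.21, Angpt2, which loosens vessels, by 4.43, and Nrp2, a co-receptor with the highest level per length of the list in S2B, by 5.22 on the log2 scale. Apln and Vegfb were higher in every S4B library but under the fold threshold.

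Cell division genes fell without exception, 18 of 18 (median -5.43). Mki67, a marker of cycling cells, was at 169, 159.7 and 177 CPM in S2B and 0.862, 0.544 and 1.41 CPM in S4B and Top2a, which untangles DNA before division, at 186, 151 and 172 CPM in S2B and 0.0719, 0.435 and 1.18 CPM in S4B. Cdk1, the kinase that starts mitosis, was at 50.2, 45.0 and 49.4 CPM in S2B and 0.0719, 0 and 0.169 CPM in S4B, at least 264-fold lower. The log2 fold change of Top2a, -8.13, was -9.20 without S4B replicate 3. Pcna, the replication clamp that repair also uses, changed least, at 136, 127 and 131 CPM in S2B and 35.7, 33.8 and 35.5 CPM in S4B (log2 fold change -1.91, SE 0.07, adjusted p = 1.93e-10). The groups did not overlap in 18 of the 18, against 85.6% of all genes tested. The promoter of Mki67 (chr7:135716330-135716629, minus strand) is shown for the CHR element, TTTGAA, and the CCAAT box, a pair found in many promoters of genes of the cell cycle.
Mki67: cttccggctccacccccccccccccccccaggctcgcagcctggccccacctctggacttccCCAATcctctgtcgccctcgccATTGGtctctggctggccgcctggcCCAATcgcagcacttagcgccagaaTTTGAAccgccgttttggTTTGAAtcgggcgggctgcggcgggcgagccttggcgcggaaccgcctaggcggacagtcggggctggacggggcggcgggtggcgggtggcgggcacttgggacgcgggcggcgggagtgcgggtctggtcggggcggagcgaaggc
It holds 5 matches. CHR letters were in 14.2% of the promoters of DEGs lower in S4B, 9.94% of those higher and 11.8% of all, and CCAAT letters in 37.6%, 37.2% and 38.0%.

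Genes that reactive glia and injured tissue raise were lower in S4B in 14 of 15 cases (median -6.18, or -5.61 with bounds), Gfap being the exception. Vim, a filament protein of reactive astrocytes and of all mesenchymal cells, was at 1661, 1996 and 2295 CPM in S2B and 17.8, 20.1 and 19.9 CPM in S4B. Timp1, an inhibitor of matrix proteases, was at 807, 554 and 885 CPM in S2B and 2.30, 1.80 and 2.14 CPM in S4B and Serpina3n, a protease inhibitor of reactive astrocytes and other tissues, at 138, 174 and 156 CPM in S2B and 13.4, 12.2 and 7.93 CPM in S4B. Lcn2, which neutrophils and reactive astrocytes make, was at 100.5, 135 and 106 CPM in S2B and 2.73, 6.15 and 0.225 CPM in S4B (log2 fold change -5.20, or -6.37 without S4B replicate 2). Fibroblasts and myeloid cells also express many genes of this list, and the lists of both lay on the same side as given above. Their part in these differences was not tested.

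Immediate early genes, which neuronal activity and stress switch on within minutes, were mixed, with 6 of 17 higher in S4B, 2 lower and 9 not called (median -0.17). Arc, which acts at active synapses, was at 1.32, 0.667 and 0.368 CPM in S2B and 452, 161 and 414 CPM in S4B (log2 fold change 8.73, SE 0.77, adjusted p = 3.47e-04, or 9.36 without S2B replicate 1). Egr1 was at 87.1, 59.1 and 76.3 CPM in S2B and 469, 274 and 478 CPM in S4B, Egr3 at 18.3, 11.5 and 10.6 CPM in S2B and 349.5, 236 and 338 CPM in S4B, Npas4, a factor specific to neurons, at 2.92, 4.14 and 3.75 CPM in S2B and 41.8, 21.7 and 37.3 CPM in S4B and Nr4a1 at 28.5, 26.3 and 19.6 CPM in S2B and 243, 124 and 206 CPM in S4B. For all of these the groups were apart and S4B replicate 2 was the lowest of its group. Fos was at 47.2, 33.2 and 62.4 CPM in S2B and 57.2, 24.3 and 46.3 CPM in S4B and Junb at 138, 107 and 117 CPM in S2B and 93.5, 55.7 and 74.8 CPM in S4B, neither called. Fosl2, which osteoblasts and osteoclasts use, was lower, at 231, 211 and 211 CPM in S2B and 60.9, 49.0 and 54.3 CPM in S4B, as was Ier2. Within S4B replicate 2 was the lowest in 16 of the 17 genes and replicate 1 the highest in 14. The call of Egr2 was lost without S2B replicate 1 or 2.

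Many enzymes and structural proteins exist as a form enriched in brain and a related form used elsewhere, and 30 such pairs were compared. The brain form was higher in S4B in 30 of 30 pairs (median log2 fold change 4.70), against the background of 27.8%. The pairs were chosen for a form enriched in brain, with earlier results of these data known, and some members are also in the lists above. Their count therefore adds no independent evidence on the difference in tissue content. The other form was lower in 15, higher in 5 and not called in 10 (median -0.95), and in all 30 pairs its log2 fold change was below that of its partner. For the beta tubulins, Tubb3 was at 8.66, 6.94 and 9.09 CPM in S2B and 230.1, 230.3 and 244 CPM in S4B and Tubb6 at 231, 207 and 212 CPM in S2B and 2.95, 2.72 and 2.87 CPM in S4B. Per length, Tubb3 made up 4.72% of both in S2B and 99.1% in S4B. For the fusion proteins Snap25 and Snap23 the share of Snap25 went from 11.7% to 99.1%. Ptbp2 and Ptbp1 are splicing repressors of which neurons exchange the second for the first. Ptbp2 was at 43.8, 48.9 and 49.6 CPM in S2B and 133, 123 and 129.8 CPM in S4B and Ptbp1 at 229, 189.5 and 216 CPM in S2B and 23.4, 20.2 and 24.0 CPM in S4B, so that Ptbp2 made up 10.4% of both in S2B and 74.7% in S4B. Actl6b and Actl6a, subunits of the BAF chromatin remodeller that neurons likewise exchange, went from 1.91% to 86.2% Actl6b.

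Among metabolic pairs, Ldhb and Ldha, the chains of lactate dehydrogenase, had log2 fold changes of 3.50 and -1.02, Hk1 and Hk2, which start glycolysis, 1.91 and -3.86, and Eno2 and Eno1, the enolases, 3.79 and 0.08. The call of Ldha was lost without S2B replicate 1 or S4B replicate 2. In the proton pump the brain form of the membrane subunit, Atp6v0a1, was at 106, 96.0 and 104 CPM in S2B and 553, 585 and 596 CPM in S4B and the osteoclast form, Tcirg1, at 289, 296 and 267 CPM in S2B and 13.8, 16.4 and 13.2 CPM in S4B. The elongation factor Eef1a2, which neurons and muscle use, was at 54.5, 66.8 and 8.60 CPM in S2B and 999, 975 and 1011 CPM in S4B, and Eef1a1 at 4651, 4788 and 5173 CPM in S2B and 1330.5, 1413 and 1378 CPM in S4B. Eef1a2 was in S2B lowest in replicate 3, as the muscle genes were. In 5 pairs both forms rose, among them Pfkp and Pfkl, forms of phosphofructokinase, by 3.20 and 1.58. Reads of such pairs can be shared where the sequences are alike, and the extent was not tested.

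**Figure D3:**
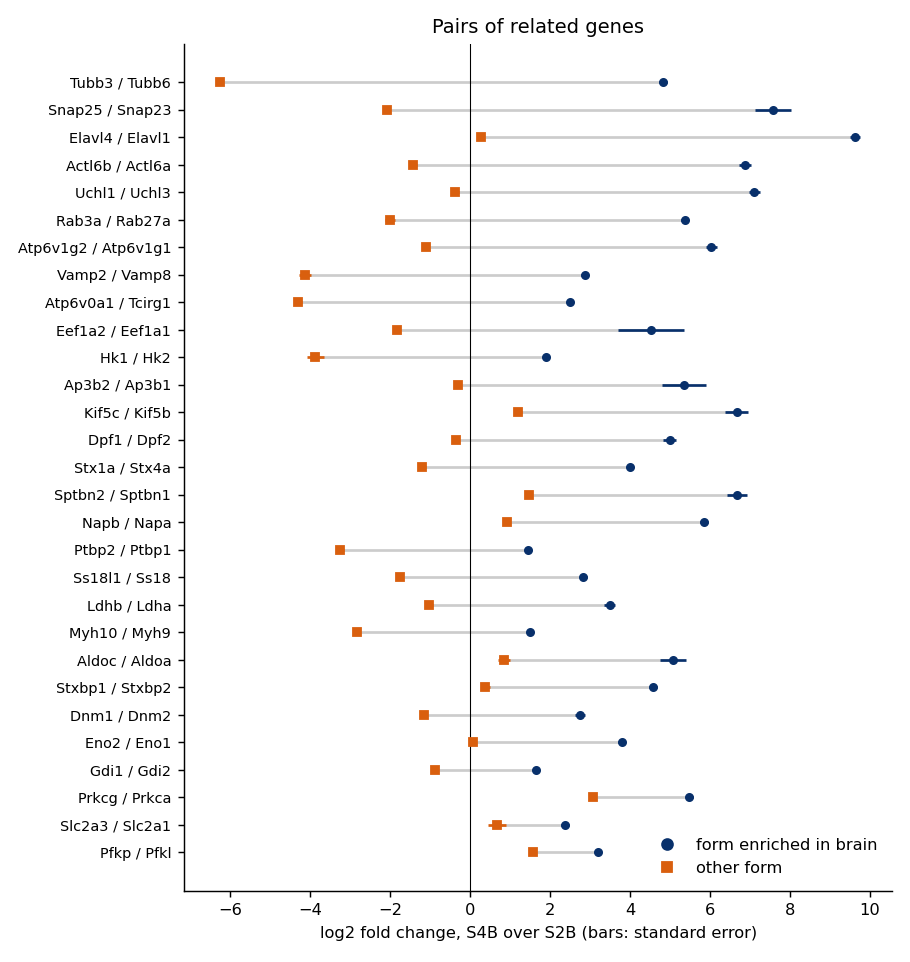
Log2 fold change of S4B over S2B (x axis) of 29 of the 30 pairs of related genes, with the form enriched in brain as circles and the other form as squares. Bars are the standard error, and pairs are sorted by the difference. The brain form lies to the right in every pair drawn, from Tubb3 and Tubb6 with the largest difference (11.08) to Pfkp and Pfkl with the smallest (1.62).

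Not every abundant gene differed. Of the genes tested 2893 did not pass the adjusted p, and 4652 passed it with a log2 fold change of at most 1. The 10 with the most counts among the former were mt-Cytb, Ddx5, Pkm, Eif4g2, Rsrp1, Snrnp70, Prrc2a, Leng8, Slc25a3 and Ddx3x, several of which act in splicing or translation. Ddx5, an RNA helicase, was at 1039, 988 and 967 CPM in S2B and 960.3, 1003 and 1014 CPM in S4B (log2 fold change -0.01, SE 0.07, adjusted p = 0.922), and Pkm, the last enzyme of glycolysis, at 975, 870.1 and 874 CPM in S2B and 893, 932 and 859.9 CPM in S4B. None of the 12 tested protein genes of the mitochondrial genome was called (median log2 fold change 0.22), although 6 were higher by the adjusted p alone. The most abundant, mt-Co1, was at 15328, 17193 and 13971 CPM in S2B and 19398, 18758 and 19597 CPM in S4B. The counts of the ribosomal RNAs of the mitochondrion did differ, with mt-Rnr2 at 713, 853 and 581 CPM in S2B and 4796, 4339 and 4209 CPM in S4B and mt-Rnr1 at 527, 604 and 404 CPM in S2B and 3668, 3176 and 3184 CPM in S4B, log2 fold changes of 2.64 (SE 0.14, adjusted p = 1.27e-08) and 2.71 (SE 0.15, adjusted p = 3.64e-08). The libraries were made from poly(A) RNA, and how fully these RNAs were captured in each group was not tested. Of 16 genes often used for scaling 9 were not called, 6 were lower and 1 was higher. Actb was at 2180.2, 2090.0 and 2194 CPM in S2B and 684, 679 and 729 CPM in S4B, Ywhaz at 236, 219.8 and 239 CPM in S2B and 712, 699 and 742 CPM in S4B and Tbp at 30.8, 29.8 and 32.4 CPM in S2B and 39.2, 37.0 and 40.5 CPM in S4B. Gapdh, of which the genome holds many pseudogene copies, was at 17.7, 16.2 and 15.1 CPM in S2B and 18.0, 20.9 and 19.1 CPM in S4B, and whether such genes lost reads that map to several places was not tested.

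Kinds of transcript differed in direction. Of 14684 protein-coding genes tested 26.1% were higher in S4B and 29.0% lower. Long intergenic RNAs leaned to S4B, with 46.8% of 483 higher and 23.4% lower, and so did antisense RNAs, with 45.4% of 489 higher and 17.8% lower. Processed pseudogenes, copies of messenger RNA, leaned to S2B, with 13.7% of 542 higher and 45.6% lower. Meg3, an imprinted long RNA, was at 194, 129 and 218 CPM in S2B and 6894, 7151 and 6721 CPM in S4B. Snhg11, named as a host of small RNAs but listed as protein-coding in this annotation, was at 13.8, 20.1 and 9.45 CPM in S2B and 3732, 4006 and 3532 CPM in S4B. Antisense RNAs cannot be told from their partners if strand was not used in counting, and pseudogenes may hold reads of their parent genes.

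Gene length went with direction as well. DEGs higher in S4B spanned a median of 40.2 kb of genome and those lower 19.1 kb, against 25.0 kb over all protein-coding genes tested. Of 510 genes over 300 kb 65.1% were higher and 12.5% lower, and of 1562 genes under 5 kb 19.2% were higher and 39.4% lower. Neurons are known to express many very long genes of adhesion and of the synapse. The share of each direction is given per bin as a description, since genes are not replicates of a condition.

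**Figure D4:**
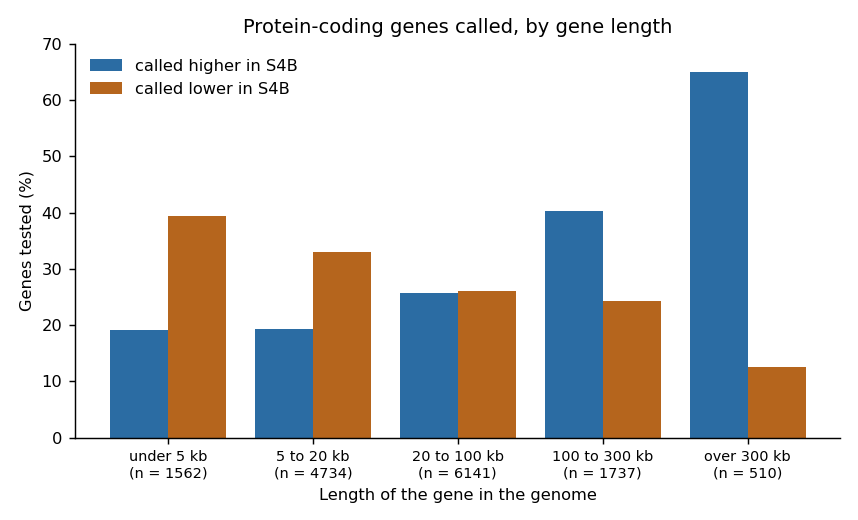
Share of protein-coding genes tested (y axis, percent) that were higher (blue) or lower (brown) in S4B, in 5 bins of the length of the gene in the genome (x axis, number of genes in brackets). The share higher in S4B is 65.1% over 300 kb and 19.2% under 5 kb, and the share lower is 12.5% and 39.4%.

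Libraries of the same group differed in a few programs. The median SD of log2(CPM + 1) over the genes tested was 0.125 in S2B and 0.101 in S4B, and 2.79% of genes in S2B and 0.856% in S4B had an SD over 0.5. The 8 most variable genes of S2B with a mean of at least 10 CPM were Rbp3, Chgb, Tph1, Chrnb4, Gnb3, Sag, Mylk4 and Myh2. Rbp3, a retinoid carrier of photoreceptors and pineal cells, was at 63.2, 0.734 and 89.6 CPM in S2B and 0 CPM in every S4B library. Tph1, the first enzyme of serotonin and melatonin synthesis in the pineal gland, was at 50.6, 3.34 and 102 CPM in S2B and 0.431, 0.109 and 0.0562 CPM in S4B, and Gnb3, a G protein subunit of cones, at 39.3, 2.40 and 53.7 CPM in S2B and 0.0719, 0.163 and 0.225 CPM in S4B. All 3 were high in S2B replicates 1 and 3 and low in replicate 2. A list of 17 genes known from pineal gland and photoreceptors was then made, after these values had been seen, and 14 were in the table. Of these 5 are among the 8 genes above, chosen for this variation, and tell nothing further. In the other 9 replicate 2 was the lowest S2B library in 9, and their summed level was 43.3, 5.47 and 64.3 CPM in S2B replicates 1, 2 and 3. Crx and Otx2, factors of both cell types, were at 7.17, 0.400 and 9.58 CPM in S2B and 0 CPM in every S4B library and at 4.64, 0.267 and 6.81 CPM in S2B and 0 CPM in every S4B library. Aanat, the enzyme before the last step to melatonin, was low in all 6 libraries and higher in S4B, at 0.344, 0.200 and 0.430 CPM in S2B and 0.934, 1.63 and 1.12 CPM in S4B. The calls of Tph1, Gnb3 and Chrnb4 were lost when any 1 S4B library was left out, that of Tph1 also without S2B replicate 1 and that of Chrnb4 also without S2B replicate 1 or 3. The direction was kept throughout, and the log2 fold change of Gnb3, -7.58, was then -7.30 to -7.91. Rbp3, Chgb, Sag and Slc17a6, not called, were called without S2B replicate 2 and in the fit of all 12 libraries, and Rbp3 and Chgb also by DESeq2 and Rbp3 with the replicate block. The log2 fold change of Tph1, -8.12, moved between -9.16 and -7.18 when 1 library was left out, and that of Gnb3 was -6.98 without S2B replicate 3. The pattern was shared by some neuronal genes at their low S2B level: the vesicle gene Syp was at 17.3, 3.14 and 19.0 CPM in S2B and 611, 616 and 624 CPM in S4B and the glutamate carrier Slc17a6 at 13.1, 0.600 and 13.8 CPM in S2B and 42.0, 39.7 and 39.2 CPM in S4B.

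In S4B the 8 most variable genes were Gbp4, Etnppl, Lgals3bp, Oasl2, Egr2, Fabp7, Gbp3 and Arc. Gbp4, a GTPase that interferon induces, was at 24.2, 38.6 and 23.5 CPM in S2B and 45.4, 71.8 and 4.78 CPM in S4B, Lgals3bp at 140.4, 161 and 171 CPM in S2B and 31.6, 33.2 and 7.54 CPM in S4B and Oasl2 at 56.5, 68.7 and 82.0 CPM in S2B and 14.7, 12.4 and 3.21 CPM in S4B, each lowest in S4B replicate 3. A list of 19 interferon-induced genes was made after these values had been seen. It holds 4 of the 8 variable genes above, which prompted it and tell nothing further. In the other 15 replicate 3 was the lowest S4B library in 14, and their summed level was 163, 162 and 87.4 CPM in S4B replicates 1, 2 and 3 against 555 to 671 CPM in S2B. Of the 19, 17 were lower in S4B and 2 not called, among these Gbp4, whose groups overlapped and whose log2 fold change was 0.50, or -0.19 without S4B replicate 2 and 1.04, then called, without replicate 3. Of the 17, Gbp3 lost its call when any 1 S2B library or S4B replicate 2 or 3 was left out, with no filter on low counts and with the replicate block, under which the call of Oasl2 was lost too. Irf7, a factor of the interferon response, was at 63.9, 70.2 and 91.0 CPM in S2B and 8.12, 9.14 and 2.47 CPM in S4B. B2m, the light chain of MHC class I, was at 484, 450.1 and 528 CPM in S2B and 85.5, 94.8 and 42.7 CPM in S4B, also lowest in S4B replicate 3. Etnppl, a lyase of astrocytes that breaks down phosphoethanolamine, was at 0.516, 0.734 and 0.368 CPM in S2B and 19.6, 55.1 and 10.2 CPM in S4B, highest in S4B replicate 2 (log2 fold change 5.71, or 4.80 without it).

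**Figure D5:**
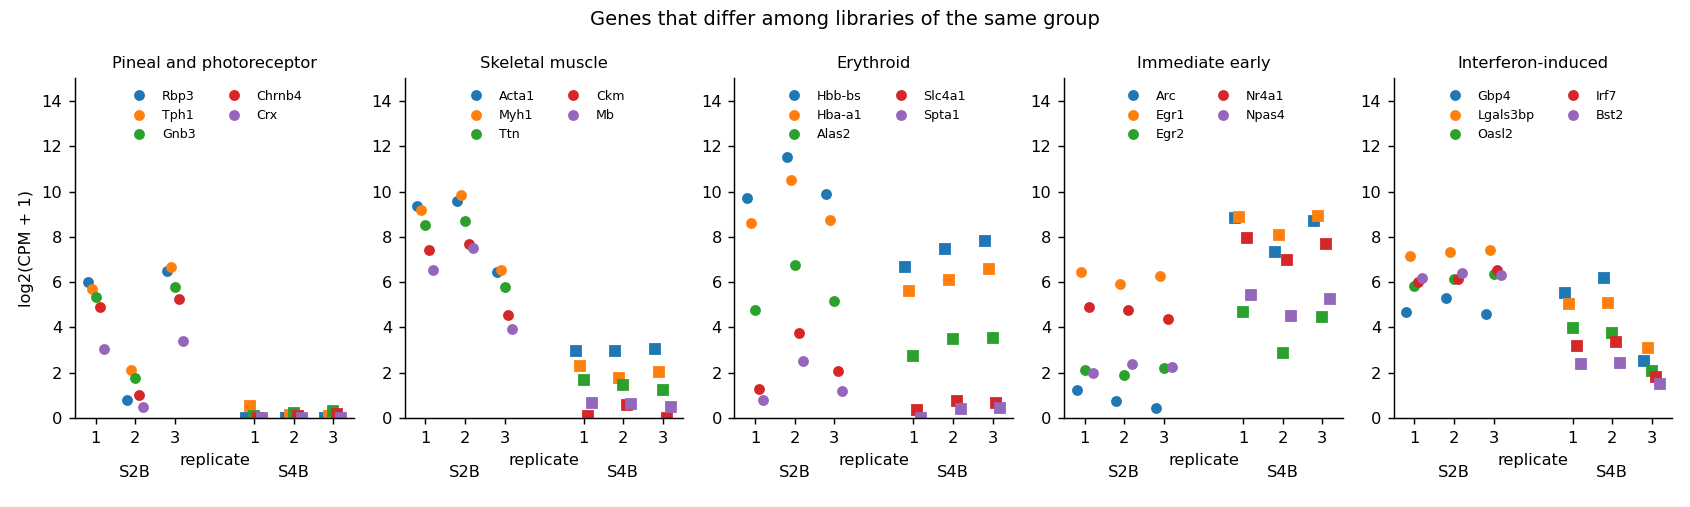
Levels of 25 genes in 5 panels as log2(CPM + 1) (y axis) in each replicate of S2B (circles) and S4B (squares, x axis). Pineal and photoreceptor genes are low in S2B replicate 2, muscle genes in S2B replicate 3, red cell genes high in S2B replicate 2, immediate early genes lowest in S4B replicate 2 and interferon-induced genes in S4B replicate 3.

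Further motifs searched in the same windows were those of the cyclic AMP response element (CRE), TGACGTCA, of the zinc finger factors of the Egr family, GCGTGGGCG, and of red cell factors such as Gata1, AGATAAG. The CRE letters were in 2.93% of promoters of DEGs higher in S4B, 1.56% of those lower and 3.03% of all, Egr letters in 1.53%, 1.10% and 1.20%, and Gata1 letters in 1.78%, 2.20% and 1.78%. Among genes without a call CRE was found in 4.01%, more than in either group of DEGs.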

How the data were processed

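Poly(A) RNA-seq of 6 libraries was analysed, 3 labelled S2B and 3 labelled S4B, grouped by the labels. The authors deposited 1 table of raw read counts per gene symbol, without normalization. Per their methods, reads were trimmed with fastp and aligned to mm10, and the submitters' processing notes name HISAT2 2.1.0. The counting program, its annotation and its use of strand are not given in the sources used here, nor whether the batch correction that the study applied came before deposition. Near-identical genes may therefore have lost or shared reads.

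Genes were kept with edgeR's filterByExpr (minimum count 10), scaled with TMM factors and tested with edgeR's robust quasi-likelihood test (R 4.3.3, edgeR 4.0.16, limma 3.58.1), with Benjamini-Hochberg adjustment over all 17293 genes tested. Calls needed an adjusted p below 0.05 together with a log2 fold change beyond 1 in size. Standard errors (SE) are the size of the log2 fold change over the root of F. CPM are relative to the TMM-scaled library total, and CPM per kilobase divides them by the exon length in GENCODE M21, in which 22029 of 22317 symbols were found. A fold against a group with at most 3 counts in every library was computed against 3 counts in each library and is given as a lower bound. For Ibsp, whose S4B replicates 2 and 3 were at that limit itself, the bound is not firm. Promoters were matched by symbol for 12188 of the 17293 genes tested (RefSeq, GRCm38.p6), with the first listed used for the 2464 genes with several.

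The comparison, gene lists and pairs were chosen with earlier results of these data known. The pineal and photoreceptor list, the interferon-induced list and the Unc13a promoter were chosen after their values were seen. Genes named were list and pair members, the 12 called genes with the most counts on each side, the 10 uncalled genes with the most counts and the 8 most variable genes of each group. Alternatives were RLE factors, upper-quartile factors, total counts alone, DESeq2 1.42.0, a fit without the filter, a filter of 10 counts in all libraries, each library left out, a replicate block, all 12 libraries in 1 fit, and the adjusted p alone. Some genes covered by these rules are counted but not reported by name here. The code was tested on simulated counts, with far fewer genes changed than here and by smaller folds than many here. That run does not test the scaling or the error rate at a difference as wide as this one.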

Additional observations from a re-analysis of the deposited data

How the results depend on the processing

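The numbers of genes called higher and lower in S4B stayed within 1.5 times 4799 and 4949 under every alternative run, and no gene called in both the fit reported and an alternative changed direction. The lowest counts were 3209 and 3396, with at least 10 counts required in every library (13718 genes tested), and the highest 7138 and 7262, with the adjusted p alone. DESeq2 called 5192 and 5240, no filter on low counts gave 5408 and 5641, and leaving out 1 library gave 4834 to 5005 higher and 5007 to 5058 lower. Upper-quartile factors moved the median log2 fold change of all genes by -0.13 and gave 4446 and 5293. Requiring at least 10 counts in every library removed the list genes that are near 0 in 1 group, and the median log2 fold change turned to -0.078 for the oligodendrocyte precursor list and to 0.65 for the cerebellum list.

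Replicate numbers occur in both groups. Deviations from the group means correlated at 0.0256, 0.0529 and -0.0166 between same-numbered libraries, and at -0.0956 to 0.0717 between the others. Whether the numbers mark a pairing or a shared batch cannot be told from these correlations. With a replicate block 4793 genes were higher and 4927 lower. Depth limits statements on genes under about 3 counts, and the p-values rest on 3 libraries a group.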
